A study of Mus musculus with 13 samples.

Results

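Pleiotrophin and midkine, encoded by Ptn and Mdk, form a small family of secreted growth factors that bind heparin, and the syndecans Sdc1, Sdc2, Sdc3 and Sdc4 and the endocytic receptor Lrp1 are among the cell-surface proteins that bind them. These 7 genes were taken by symbol from the 32285 genes of the count tables, of which 25229 had at least 1 UMI (unique molecular identifier, 1 counted transcript molecule) in a fibroblast. The set was chosen by its levels over the libraries and states, that is, selected on measured CPM values of these data. The p-values below come from fits across all genes and are not independent of that choice. Nothing is read from them or from the counts of genes called about the choice of the set. The fall of Ptn after hormone treatment was known beforehand, so its hormone values are given as a description without a test. All 7 genes were detected in every one of the 13 libraries.

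Syndecans are transmembrane proteins that carry heparan sulfate, a sulfated sugar chain that holds growth factors at the cell surface and presents them to signalling receptors. Ptn and Mdk bind these chains, and both also bind a receptor phosphatase, the kinase receptor ALK, integrins and Lrp1. In the mammary gland the factors act between stroma and epithelium, and Ptn is known as a mitogen for endothelial and epithelial cells and for its part in vessel growth in tumours.

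The samples were sorted stromal cells of female mice, profiled by 3′ droplet single-cell RNA sequencing. The 5 stage libraries came from wildtype C57BL/6 glands at puberty (labelled 4 weeks), adulthood (virgin, 9 weeks), day 14.5 of pregnancy, day 10 of lactation and day 4 of involution, with 1 library per stage. The 4 hormone libraries came from wildtype C57BL/6 mice of 9 weeks given placebo or medroxyprogesterone acetate with estrogen (MPA+E), with 2 libraries per arm. These 9 libraries were lineage-negative CD24-negative fractions pooled from 2 females each. The 4 raGFP-Wnt1 libraries were GFP-positive cells from Pdgfra-GFP KI/+ MMTV-Wnt1 T/+ mice on a mixed C57BL/6 FVB background, in which the MMTV promoter drives the Wnt1 transgene in the mammary epithelium and GFP reports Pdgfra. Hyperplastic gland and tumour were taken from the same animal, mouse 1 at 45 weeks and mouse 2 at 17 weeks.

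Fibroblast barcodes had 500 to 7500 genes, at most 10% mitochondrial UMIs, at least 50 UMIs of Dcn, Lum and Col1a2 per 10000, and no UMI of Epcam, Pecam1, Rgs5, Sox10, Ptprc or Myog. Between 84.67% and 94.49% of the barcodes within the limits on genes and mitochondrial UMIs passed, which gave 100523 fibroblasts, from 4236 in tumour 2 to 11951 in the adult, with median depths of 3990 (pregnancy) to 20256 UMIs (tumour 2). Levels are CPM, the usual scale on which the fibroblast UMIs of every library are brought to the same total, with exact 95% Poisson intervals that cover counting error only. In summed cells, fewer cells of a type and less RNA per cell cannot be told apart. Whether groups of libraries overlap, or lie in the same order in several classes, is given as a description. The share of all genes that would do so was not counted. The summed level of 5 epithelial markers was at most 1.512 CPM in 12 of the libraries and 33.44 CPM in pregnancy. The 4 pericyte markers summed to 29.54 and 32.23 CPM in the tumours and to 5.81 to 13.58 CPM elsewhere. Epcam and Rgs5, which are among these markers, had no UMI, as the choice of barcodes required.

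In the GRCm38 assembly, with GENCODE M21 gene models, Ptn (ENSMUSG00000029838) lies at chr6:36714929-36810220 and Mdk (ENSMUSG00000027239) at chr2:91929805-91932297, both on the minus strand. Sdc1 (ENSMUSG00000020592) spans chr12:8771323-8793715, Sdc2 (ENSMUSG00000022261) chr15:32920723-33034935 and Sdc3 (ENSMUSG00000025743) chr4:130792537-130826319, all on the plus strand. Sdc4 (ENSMUSG00000017009) spans chr2:164424247-164443887 and Lrp1 (ENSMUSG00000040249) chr10:127538161-127621148, both on the minus strand.

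The promoters of Ptn and Sdc3 are shown because these genes had opposite differences in level under MPA+E. Each is the RefSeq window of GRCm38.p6 from 250 bases before to 50 bases after the gene's start, written 5′ to 3′ on the strand of the gene, at chr6:36810130-36810429 for Ptn (minus strand) and chr4:130792287-130792586 for Sdc3 (plus strand). Capitals mark a match to the progesterone and glucocorticoid receptor core motif TGTTCT on either strand.
Ptn: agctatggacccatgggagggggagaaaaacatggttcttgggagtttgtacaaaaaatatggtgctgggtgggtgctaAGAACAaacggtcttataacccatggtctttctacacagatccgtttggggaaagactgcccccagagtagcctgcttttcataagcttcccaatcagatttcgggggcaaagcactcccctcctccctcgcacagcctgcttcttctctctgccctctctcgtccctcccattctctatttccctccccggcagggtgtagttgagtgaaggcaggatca
Sdc3: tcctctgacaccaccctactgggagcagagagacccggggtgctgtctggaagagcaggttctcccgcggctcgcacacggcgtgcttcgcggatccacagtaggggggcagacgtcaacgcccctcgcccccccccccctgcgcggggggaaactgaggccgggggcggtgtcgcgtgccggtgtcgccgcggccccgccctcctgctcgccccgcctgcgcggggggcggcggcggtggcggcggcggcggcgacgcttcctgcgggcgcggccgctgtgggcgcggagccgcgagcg
The Ptn window held 1 match, on the opposite strand from position 80, and the Sdc3 window held none. This motif was present in 18.97% of 32851 promoter windows of the same length. The full palindromic elements of the progesterone and glucocorticoid receptors (in 0.4749% of windows) and of the estrogen receptor (0.07001%) were in neither window, nor was the estrogen receptor core motif GGTCA (40.48%). The Ptn window was 52% G and C and that of Sdc3 77.67%, above 97.92% of the windows. A match of letters is a description of the sequence and was not measured as binding.

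Across the 5 normal stages the ligands had wider ranges than most of their receptors, and they differed in order. Ptn stood at 110.2 CPM in the puberty library, 62.16 in the adult one, 85.31 at pregnancy, and 14.65 at lactation and 16.77 at involution. The puberty level was 7.525 times that of lactation (95% interval 7.016 to 8.078), and between neighbours in the order of levels the largest ratio was 3.706, between the adult and involution. Mdk stood at 47.00 CPM at puberty and 35.77 in adult glands, at 93.26 and 72.10 in pregnancy and lactation, and at 171.7 CPM at involution, a ratio of 4.801 between involution and adult (4.603 to 5.008). Ptn was thus lowest in lactation and Mdk in the adult, and involution combined the highest Mdk level with a low Ptn level. The 6 cycling markers ran in the same order as Ptn, with a summed level of 54.84 CPM at puberty, 40.13 at pregnancy, 12.57 in the adult, 9.356 at involution and 2.888 CPM at lactation. Cycling-like cells, a class described below, were 0.05914% to 1.741% of the stage libraries and held 0.6501% to 4.394% of their Ptn UMIs. The 4 Schwann markers summed to 50.46 CPM at puberty and 15.91 to 21.06 CPM in the other stages, with the defining marker Sox10 at 0 in each, as the choice of barcodes required. Their part in the Ptn level was not tested.

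Of the receptors, Sdc3, best known from the nervous system, varied most among the syndecans, with 5.603, 5.376, 6.145, 1.809 and 3.446 CPM in puberty, adult, pregnancy, lactation and involution. Its ratio between pregnancy and lactation was 3.396 (2.726 to 4.255), while pregnancy, puberty and adult did not differ in order beyond counting error. Lrp1, an endocytic receptor of the LDL receptor family, was split into 761.6 and 754.7 CPM in lactation and involution against 383.1 to 416.4 CPM in the other stages, and its levels in lactation and involution had a ratio of 1.009 (0.9968 to 1.021). Sdc1 ranged from 32.55 to 52.53 CPM, Sdc4 from 254.3 to 342.6 CPM and Sdc2 from 188.0 to 237.6 CPM. For Sdc1 neither involution and pregnancy nor puberty and lactation differed beyond counting error. With 1 library per stage there is no replicate error, and a library and its stage cannot be told apart. The placebo libraries came from mice of the same strain and age as the adult library. They stood at 578.9 and 534.0 CPM of Lrp1, against 416.4 CPM in the adult. For Mdk they stood at 76.83 and 88.91 against 35.77 CPM, and for Ptn at 81.91 and 62.60 against 62.16 CPM.

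**Figure D1:**
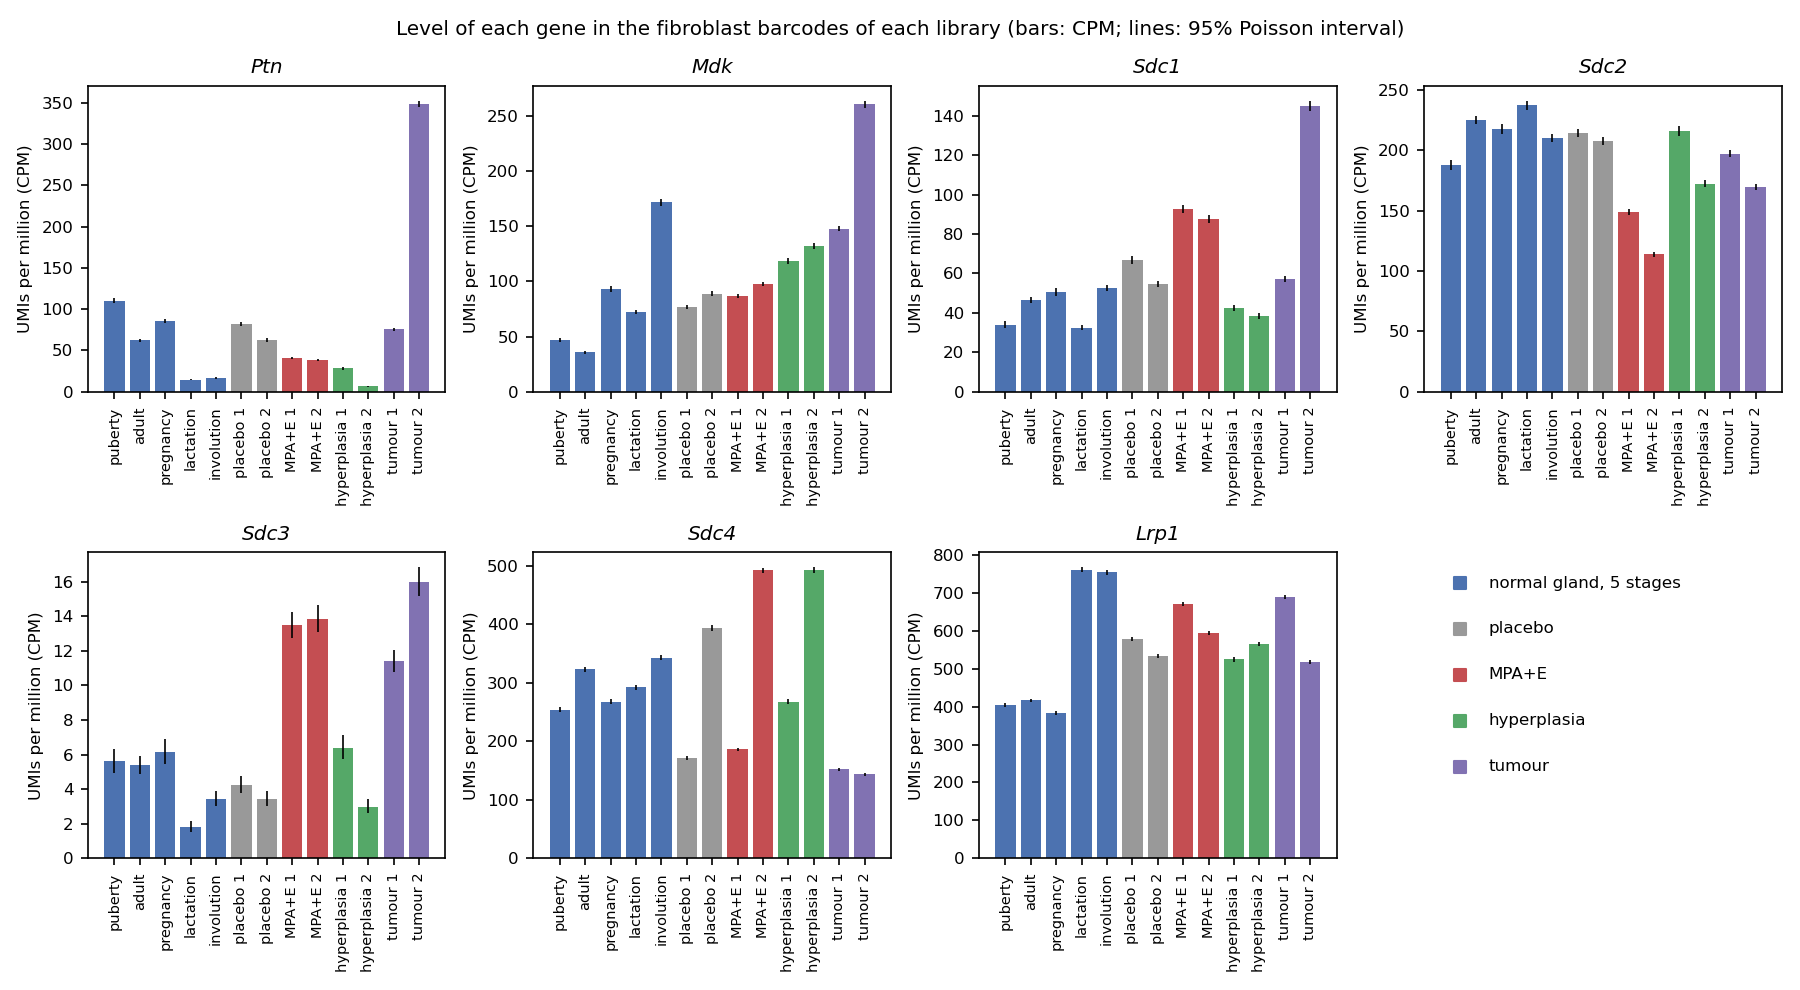
Level of each of the 7 genes in the fibroblasts of 13 libraries, in CPM (vertical axis, from 0), with bars coloured by group and lines for the 95% Poisson interval. Ptn was at 14.65 and 16.77 CPM in lactation and involution and at 348.6 CPM in tumour 2, while Sdc3 was at 13.48 and 13.85 CPM in both MPA+E libraries against 4.247 and 3.412 in placebo.

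The fibroblasts were clustered within each of the 3 experiments without these 7 genes or the pathway genes among the features, and clusters were named from markers of mammary fibroblast states. The classes were progenitor-like (Pi16, Dpp4), preadipocyte-like (Fabp4, Cd36), ECM remodelling-like (Crabp1, Pla2g7), lobular-like (Bmp5, Thbs4), adipogenesis-regulatory-like (Gdf10, Clec11a), cycling-like (Mki67) and, in the raGFP-Wnt1 libraries, myofibroblastic-like (Tnc, Cdkn2a). Classes were built from the same cells, so a class against the rest is described with no test. Values are the mean over libraries of the log2 ratio of CPM + 1 in a class to that in the other named classes of the same library.

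Mdk and Sdc1 had their highest mean ratios in the ECM remodelling-like class, which carries genes for extracellular matrix. For Mdk the mean log2 ratio was 2.56 ± 0.63 (SD, n = 5) in the stages, 1.96 ± 0.35 (n = 4) in the hormone libraries and 1.52 ± 0.99 (n = 4) in the raGFP-Wnt1 libraries, above 0 in every library. For Sdc1 the ratios were 2.00 ± 1.25, 1.61 ± 0.28 and 1.64 ± 0.68. The progenitor-like class was low in both genes, with Mdk at -3.16 ± 0.40, -3.44 ± 1.39 and -3.01 ± 1.07 and Sdc1 at -3.01 ± 0.61, -3.99 ± 0.60 and -2.13 ± 0.63. In the adult, for example, Mdk stood at 164.5 CPM in ECM remodelling-like and at 7.545 CPM in progenitor-like fibroblasts.

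Ptn had its highest mean ratio in another class, the preadipocyte-like fibroblasts, at 1.99 ± 1.18 in the stages (lowest 0.49) and 2.81 ± 0.90 in the hormone libraries. By stage this order did not hold throughout. The adipogenesis-regulatory-like class stood above it in lactation, at 26.24 against 20.05 CPM, and in involution, at 45.72 against 17.62 CPM, and the small cycling-like class (5 to 137 cells) above it in the adult, lactation and involution. In the raGFP-Wnt1 libraries this ratio was 0.25 ± 0.57 and the myofibroblastic-like class stood at 1.54 ± 0.98. Preadipocyte-like cells were 12.16% to 30.25% of the stage libraries and held 35.63% to 54.98% of their Ptn UMIs. A further cluster of 151 cells (0.3089% of the stage fibroblasts), led by Pappa2, Lgr5 and Prlr and left unnamed, had the highest Ptn levels of the stage libraries. It reached 1749.2 CPM at puberty, 2556.5 in adult glands, 1109.7 at pregnancy, 529.7 at lactation and 553.0 at involution, and held 6.219% to 17.78% of the Ptn UMIs. No Sdc3 UMI was found in its cells.

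Sdc2 and Sdc3 were high in the lobular-like class. Sdc2, a syndecan of mesenchymal cells, had mean log2 ratios of 1.03 ± 0.24, 1.17 ± 0.08 and 1.17 ± 0.36 (n = 3) in stages, hormone and raGFP-Wnt1 libraries. Sdc3 had ratios of 1.10 ± 0.42, 2.02 ± 0.23 and 2.06 ± 0.75, and in the stages the cycling-like class (1.17 ± 0.75, n = 4) was as high. Lobular-like cells were low in both ligands, with Ptn at -2.47 ± 1.39, -3.17 ± 0.39 and -3.13 ± 1.19. In the raGFP-Wnt1 libraries the class at resolution 0.3 was 249 cells, 38 and 1 of them from the tumours. At resolution 0.6 the cluster with that name was 1331 cells, 644 and 454 of them from the tumours, and led by Thbs4, Comp and Kcnj15. Its ratios were 0.46 ± 0.89 for Sdc2, 1.45 ± 0.92 for Sdc3 and -0.08 ± 1.33 for Ptn (n = 4). Sdc4, which sits in focal adhesions, was low in progenitor-like cells of the stage (-0.96 ± 0.21) and hormone libraries (-0.95 ± 0.43), and Lrp1 stayed between -0.67 and 0.40 in every class with at least 3 libraries.

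**Figure D2:**
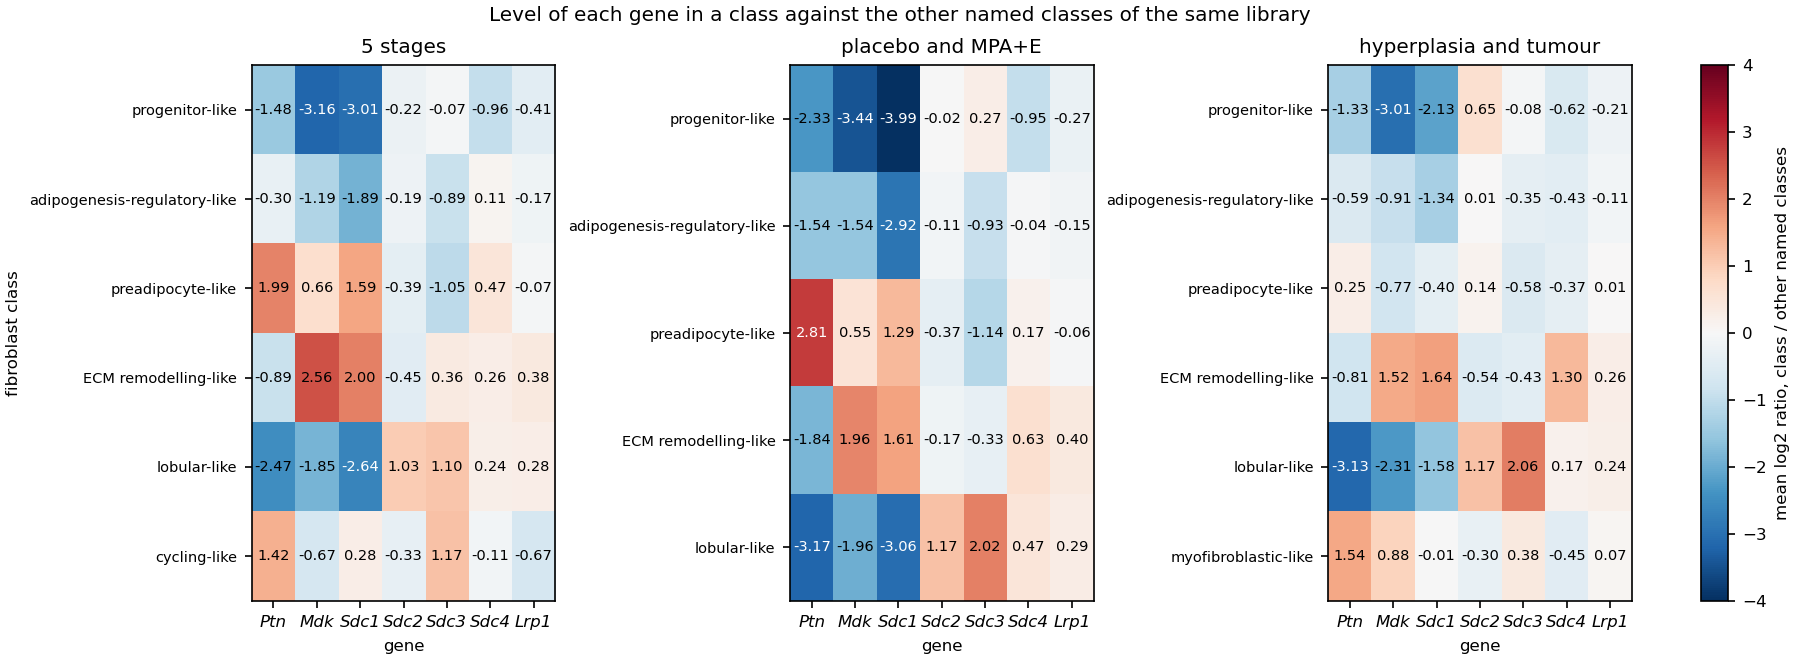
Mean log2 ratio of each gene (columns) in each fibroblast class (rows) to the other named classes of the same library, for the 5 stages, the 4 hormone and the 4 raGFP-Wnt1 libraries, for classes present in at least 3 libraries. Red is higher and blue lower in the class, with Mdk and Sdc1 red in the ECM remodelling-like row and Sdc2 and Sdc3 red in the lobular-like row of every panel.

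Between the adult and lactation libraries the Ptn level was 175.4 against 20.05 CPM in preadipocyte-like and 65.77 against 4.407 CPM in ECM remodelling-like cells. It was 16.99 against 11.24 CPM in progenitor-like and 4.198 against 1.134 CPM in lobular-like cells. In the adipogenesis-regulatory-like class the order was the other way, with 20.66 CPM in the adult and 26.24 CPM in lactation. Mdk was higher in involution than in the adult in each of the 5 large named classes, with 387.5 against 164.5 CPM in ECM remodelling-like and 226.0 against 72.34 CPM in preadipocyte-like cells. Lrp1 was higher in lactation than in the adult in the same 5 classes, for example 598.0 against 352.8 CPM in progenitor-like cells.

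Shares of cells with at least 1 UMI were compared after thinning every cell to 3000 UMIs and leaving out the shallower ones. Ptn was found in 12.34% of fibroblasts at puberty, 6.749% in adult glands, 10.69% at pregnancy, 2.486% at lactation and 3.018% at involution (17.58%, 8.987%, 11.43%, 4.566% and 4.938% before thinning). Over the 91443 thinned fibroblasts of the series the share was 7.445% for Ptn, 21.46% for Mdk, 13.30% for Sdc1, 40.65% for Sdc2, 1.813% for Sdc3, 44.15% for Sdc4 and 76.91% for Lrp1. In 897 thinned pericyte barcodes the shares were 1.003% for Ptn and 2.453% for Mdk, with levels by library of 0 to 22.58 CPM for Ptn and of 0 to 13.65 CPM for Mdk in 9 libraries but 173.7 CPM in the 31 barcodes of tumour 1, and in 170 endothelial barcodes 5.294% for Lrp1 and 2.353% for Sdc2. Median depth before thinning was 7886 UMIs in fibroblasts, 4263 in pericytes and 2096 in endothelial barcodes.

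Outside the fibroblast barcodes Ptn was high in epithelial barcodes (608.1 CPM over 1855 barcodes) and Schwann barcodes (707.9 CPM over 181), against 78.07 CPM in fibroblasts. Summed over the libraries, Sdc3 was higher in all 6 other kinds of barcode than in fibroblasts (7.882 CPM). It stood at 146.2 CPM in 37 immune barcodes, 88.99 in Schwann, 78.05 in endothelial, 20.35 in muscle, 18.89 in epithelial and 9.347 CPM in pericyte barcodes. By library, pericyte Sdc3 was below that of fibroblasts in placebo 1, puberty and both MPA+E libraries (4.502 and 2.998 against 13.48 and 13.85 CPM). In the other libraries counted it was above. Epithelial Sdc3 was below that of fibroblasts in MPA+E 1 (7.017 CPM) and above in the other libraries counted. Sdc4 reached 1409.0 CPM in 510 muscle barcodes. Lrp1, summed over the libraries, was at 582.0 CPM in fibroblasts and at 17.55 to 166.8 CPM in the 6 other kinds of barcode. By library, pericyte Lrp1 ranged from 56.88 CPM in the adult to 390.9 CPM in lactation and 633.4 CPM in the 31 pericyte barcodes of tumour 1, where fibroblasts stood at 689.4 CPM.

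The MPA+E comparison asked how the stroma responds to a strong ovarian hormone stimulus. Sdc3 had the largest difference among the receptors, at 4.247 and 3.412 CPM in the placebo libraries and 13.48 and 13.85 CPM in the MPA+E libraries, so the groups did not overlap. Its log2 fold change was 1.85 ± 0.13 (SE), with an adjusted p of 0.00716 in edgeR's quasi-likelihood test (Benjamini-Hochberg over all genes). Sdc1 stood at 66.72 and 54.64 CPM in placebo and 92.63 and 87.69 CPM in MPA+E, a log2 fold change of 0.59 ± 0.10 (adjusted p = 0.0454). Of the 6 genes tested, these 2 passed the adjusted p threshold of 0.05, where 4.33% of all genes did. The call of Sdc1 was lost without any 1 of the 4 libraries, and that of Sdc3 without either placebo library.

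Sdc2 went the other way, from 214.6 and 207.6 CPM in placebo to 148.8 and 114.0 CPM in MPA+E, without overlap. Its log2 fold change of -0.68 ± 0.13 did not pass (adjusted p = 0.0646 in edgeR). Lrp1 (0.19 ± 0.11) and Mdk (0.16 ± 0.16) had small differences, and Mdk stood at 76.83 and 88.91 CPM in placebo against 86.62 and 97.68 CPM in MPA+E, with overlapping groups. Sdc4 followed the replicate number, with 171.7 and 186.2 CPM in the libraries numbered 1 and 393.7 and 492.5 CPM in those numbered 2.

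Ptn, chosen for its fall under hormones, was at 81.91 and 62.60 CPM in placebo and at 41.12 and 38.35 CPM in MPA+E, a log2 fold change of -0.85 ± 0.12. Its share of thinned fibroblasts with a UMI was 8.294% and 7.627% in placebo and 4.329% and 4.223% in MPA+E (16.02%, 13.96%, 8.870% and 7.405% before thinning). Preadipocyte-like cells, which held most Ptn UMIs in these libraries (54.19% to 81.44%), had nearly the same level in both arms, at 196.3 and 151.5 CPM against 149.3 and 155.5 CPM. In the adipogenesis-regulatory-like class the levels were 55.56 and 49.42 against 7.458 and 12.63 CPM, and in the progenitor-like class 41.47 and 40.12 against 13.07 and 1.863 CPM. The ECM remodelling-like class had 23.74 and 27.13 against 13.81 and 18.95 CPM. The progenitor-like values moved with the clustering. At resolution 0.6 a cluster led by Ccn3 and Dlk1, with 378 and 485 placebo and 266 and 186 MPA+E cells, stood apart unnamed. The Ptn log2 fold change of the progenitor-like class was then -4.08 in place of -2.49, and its mean log2 ratio to the other classes -4.49 in place of -2.33.

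**Figure D3:**
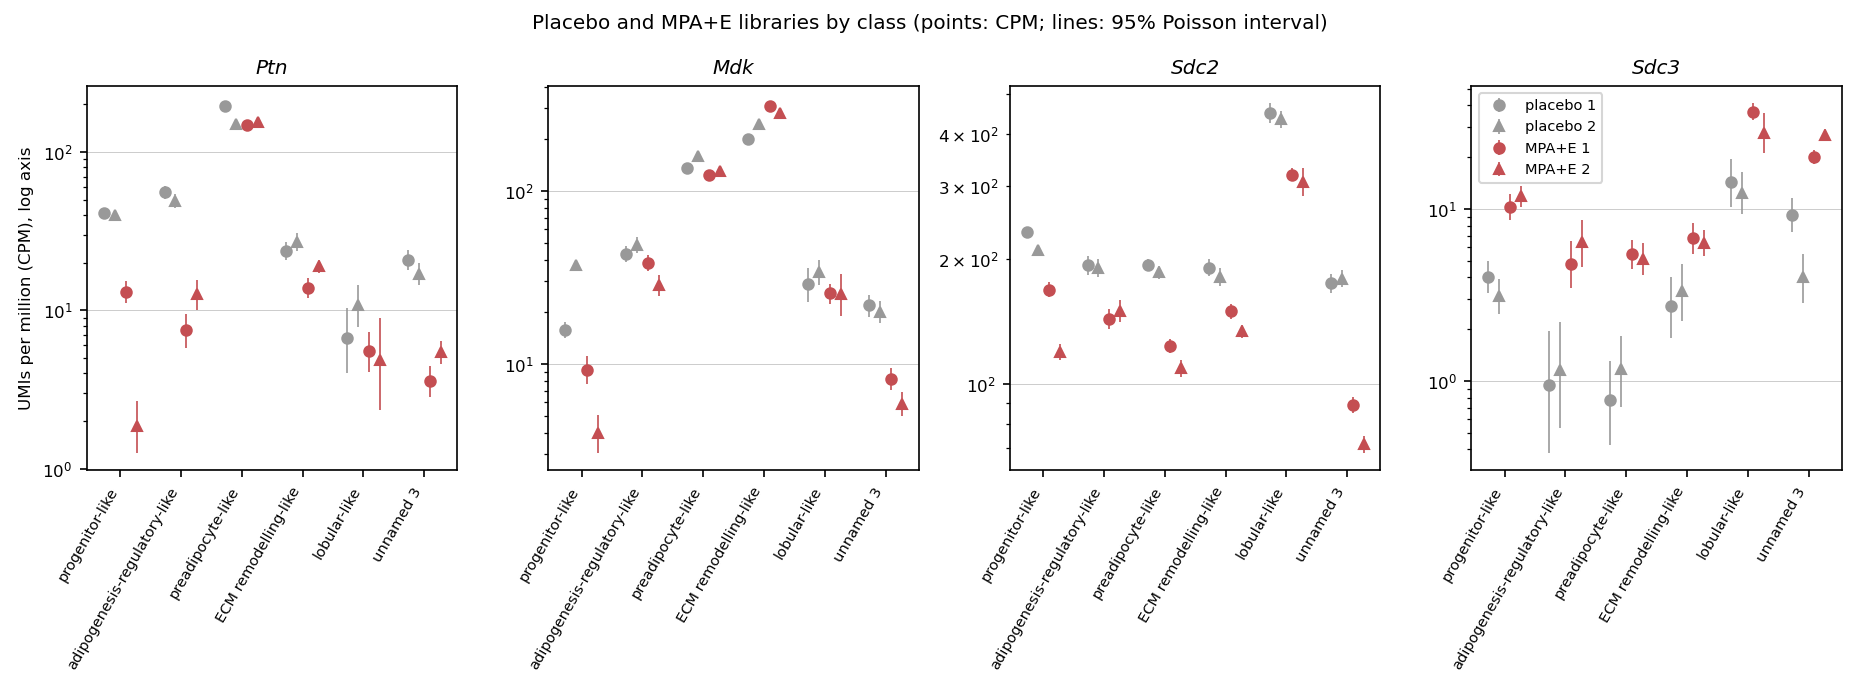
Levels of Ptn, Mdk, Sdc2 and Sdc3 in CPM (vertical log axis) by fibroblast class in the 4 hormone libraries, with circles for replicate 1, triangles for replicate 2, grey for placebo and red for MPA+E, and lines for the 95% Poisson interval. Sdc3 of both MPA+E libraries lies above both placebo libraries in each class shown, and Ptn of preadipocyte-like cells is 151.5 to 196.3 CPM in placebo and 149.3 to 155.5 CPM in MPA+E.

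Sdc3 was higher in MPA+E within each of the 5 named classes tested and passed the test in 4 of them. Its log2 fold change was 2.44 ± 0.38 in adipogenesis-regulatory-like cells (adjusted p = 0.0260), 2.43 ± 0.30 in preadipocyte-like cells (0.0247), 1.35 ± 0.19 in lobular-like cells (0.0110) and 1.65 ± 0.20 in progenitor-like cells (0.0301). The background of called genes was 3.29%, 2.96%, 2.78% and 2.21% in these classes and 1.20% in the ECM remodelling-like class, where Sdc3 had a log2 fold change of 1.05 ± 0.25 (adjusted p = 0.143). In preadipocyte-like cells the levels were 0.7778 and 1.177 CPM in placebo against 5.484 and 5.149 CPM in MPA+E. Leaving out either placebo library ended the call of Sdc3 in all fibroblasts (adjusted p = 0.0515 and 0.0573) and in each of these classes, and the log2 fold change then ranged from 1.30 to 2.83.

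Sdc2 was lower in both MPA+E libraries than in both placebo libraries in each of the 5 classes. It fell in the preadipocyte-like class, from 193.4 and 185.7 to 123.3 and 108.8 CPM, with a log2 fold change of -0.72 ± 0.11 (edgeR, adjusted p = 0.0381). The call was lost without any 1 of the 4 libraries (adjusted p = 0.110 to 0.226). In the other classes its log2 fold changes were -0.32 to -0.61 and did not pass. Sdc1 had log2 fold changes of 0.13 to 0.78 over the 5 classes, and none passed.

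Mdk had its largest hormone difference in progenitor-like cells, with 15.72 and 37.33 CPM in placebo and 9.241 and 3.975 CPM in MPA+E. The log2 fold change of -2.04 ± 0.55 within the class did not pass (edgeR, adjusted p = 0.160), and the placebo libraries lay far apart from each other. The difference of the MPA+E effect between the progenitor-like class and the other 4 named classes was tested with library as a term. The units of this test were class sums, several per library, so its p-value counts more units than the 2 libraries of each arm. That difference was -1.90 ± 0.34 for Mdk on the log2 scale (adjusted p = 0.00703), where 1.65% of all genes passed, and no other of the 6 genes passed. In the other 4 classes Mdk log2 fold changes ran from -0.40 to 0.34. The call was lost without placebo 2 (-1.33) and without MPA+E 2 (-1.39), and the class sums of 1 library share that library. At resolution 0.6, where the Ccn3 cluster stood apart, the difference was -1.57 (adjusted p = 0.0265), and the log2 fold change of Mdk within the progenitor-like class was -1.72 and passed (edgeR, adjusted p = 0.0159).

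A sixth large cluster of the hormone libraries, led by Ctla2a, Tgm2 and Pgr (the progesterone receptor), met the rule for no state and was left unnamed. It held 480 and 589 cells in placebo and 1076 and 1950 in MPA+E, and it was tested after its values were seen. Here 13.6% of genes were called. Mdk fell from 21.79 and 19.91 CPM to 8.164 and 5.876 CPM (log2 fold change -1.52 ± 0.17, adjusted p = 0.00301, edgeR), and Sdc2 from 174.6 and 179.2 to 88.73 and 71.38 CPM (-1.09 ± 0.13, adjusted p = 0.00329). Sdc3 rose from 9.239 and 4.004 to 20.03 and 27.00 CPM (1.92 ± 0.33, adjusted p = 0.0136) and Sdc1 from 6.633 and 4.636 to 9.413 and 10.84 CPM (0.92 ± 0.21, adjusted p = 0.0343). Ptn was at 20.85 and 17.07 CPM in placebo and 3.569 and 5.439 CPM in MPA+E. Of all Sdc3 UMIs this cluster held 26.44% and 15.45% in placebo and 38.28% and 53.84% in MPA+E, while its share of cells was 9.911% and 10.23% against 20.89% and 22.42%.

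Tumour and hyperplastic gland of the same mice were compared to find stromal differences within a tumour-bearing animal. Ptn stood at 28.20 and 6.406 CPM in hyperplasia and at 75.75 and 348.6 CPM in tumour (mouse 1 and 2 in this order). Each tumour lay above its own hyperplastic gland, and the groups did not overlap, but the tumours lay far apart from each other. The log2 fold change was 3.64 ± 0.90 (limma-voom, adjusted p = 0.0291). It was 3.68 ± 1.08 (limma-voom, adjusted p = 0.0667) with the mouse as a block. That fit also left out the puberty and adult libraries, so the 2 fits differ in more than the block. In thinned cells Ptn was found in 2.646% and 0.9695% of hyperplasia and 10.13% and 37.90% of tumour fibroblasts (3.987%, 1.490%, 18.71% and 57.60% before thinning).

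Sdc3 stood at 6.407 and 2.982 CPM in hyperplasia and 11.39 and 15.99 CPM in tumour, with a log2 fold change of 1.67 ± 0.35 (limma-voom, adjusted p = 0.0201; 1.62 and 0.0509 with the mouse block). Sdc4 was lower in tumour, at 152.3 and 143.9 CPM against 267.4 and 492.9 CPM, with a log2 fold change of -1.29 ± 0.29 (adjusted p = 0.0234; 0.0327 with the block). These 3 of 7 genes passed, beside 29.3% of all genes. Without hyperplasia 2 no gene of the 7 passed, and Ptn had a log2 fold change of 2.52 (adjusted p = 0.120), Sdc3 of 1.06 (0.0896) and Sdc4 of -0.86 (0.0813). Without hyperplasia 1, Sdc3 (adjusted p = 0.0568) and Ptn (0.0852) did not pass, and Ptn also missed the threshold without the puberty or the adult library (0.0534 and 0.0539).

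Mdk was at 118.6 and 132.0 CPM in hyperplasia and 147.8 and 260.4 CPM in tumour (log2 fold change 0.65 ± 0.29, adjusted p = 0.124, limma-voom). Sdc1 was at 42.43 and 38.48 against 57.13 and 145.1 CPM (1.18 ± 0.39, adjusted p = 0.0627). Neither gene passed, and tumour 2 held the highest Mdk, Sdc1, Ptn and Sdc3 levels of the 13 libraries. Sdc2 (-0.08 ± 0.19) and Lrp1 (0.13 ± 0.19) had small differences with overlapping groups.

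Beside these differences the fibroblast barcodes of the tumours held more of the 6 myofibroblastic markers, at 3760.6 and 7353.6 CPM in sum against 1853.8 and 823.9 CPM in hyperplasia, and more of the 6 cycling markers, at 88.63 and 184.8 against 5.275 and 1.519 CPM. Epithelial barcodes of the tumours had 1797.5 CPM (46 barcodes) and 1110.4 CPM (275 barcodes) of Ptn. In the fibroblast barcodes the 5 epithelial markers summed to 1.17 and 0.8089 CPM in the tumours and 0.531 and 1.036 CPM in hyperplasia. Epcam was at 0 in these sums, as the choice of barcodes required. The 31 pericyte barcodes of tumour 1 had 12.77 CPM of Ptn, below the 75.75 CPM of its fibroblasts. They had 173.7 CPM of Mdk and 120.0 CPM of Sdc1, above the 147.8 and 57.13 CPM of its fibroblasts, and 17.88 CPM of Sdc3 against 11.39 CPM. The 4 pericyte markers, with Rgs5 at 0 as the choice of barcodes required, summed to 29.54 and 32.23 CPM in the tumour fibroblasts and 13.58 and 12.44 CPM in those of hyperplasia. The part of epithelial, pericyte or free RNA in these levels of tumour fibroblasts was not tested.

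Within classes, Ptn was higher in both tumours than in both hyperplastic glands in 4 of 5 classes. In adipogenesis-regulatory-like cells it rose from 9.242 and 8.220 CPM to 49.63 and 231.8 CPM, a log2 fold change of 3.48 ± 0.64 (limma-voom, adjusted p = 0.0185). The median depth of these cells was 6929.5 and 5205.0 UMIs in hyperplasia (464 and 584 cells) but 1897.0 and 1473.0 UMIs in tumour (335 and 230 cells). At resolution 0.6, an alternative chosen after seeing the data, a cluster of shallow barcodes stood apart unnamed, with 191 and 184 tumour cells at medians of 1095.0 and 1269.5 UMIs. The class then kept 147 and 52 tumour cells at medians of 7759.0 and 9985.5 UMIs, and its Ptn log2 fold change was 2.87 ± 0.49 (limma-voom, adjusted p = 0.0215). In preadipocyte-like cells (42.14 and 4.448 against 118.0 and 350.7 CPM) the log2 fold change of 4.03 ± 1.02 passed with the mouse block (3.72, adjusted p = 0.0345) and not without it (0.0798). In progenitor-like cells (9.932 and 1.400 against 36.67 and 274.5 CPM) it passed in neither fit (5.11 ± 1.18, adjusted p = 0.0708 and 0.0546). The myofibroblastic-like class, which held 60.03% and 84.73% of tumour Ptn UMIs, was the class that overlapped, at 126.0 and 28.44 CPM in hyperplasia and 94.24 and 377.8 CPM in tumour. It joined 2 clusters, led by Comp and by Cxcl5. The pericyte markers of the Comp cluster had a mean log2 ratio to the other clusters of 1.59, with 2 of 4 raised. Its myofibroblastic markers had 1.30, with 4 of 6 raised. Ptn differed between the 2 clusters. In the cluster led by Comp the levels were 126.5 and 22.99 CPM in hyperplasia and 39.93 and 283.2 CPM in tumour, so Ptn was lower in the tumour of mouse 1 and higher in that of mouse 2. In the cluster led by Cxcl5 they were 123.7 and 52.00 CPM, from 57 and 72 cells, against 163.6 and 429.0 CPM, without overlap. In ECM remodelling-like cells the log2 fold change of 1.67 ± 0.63 (adjusted p = 0.135) was 4.02 ± 0.64 at resolution 0.6 and passed there (limma-voom, adjusted p = 0.0196). That class held 1031 and 398 tumour cells at resolution 0.3 and 603 and 260 at resolution 0.6.

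**Figure D4:**
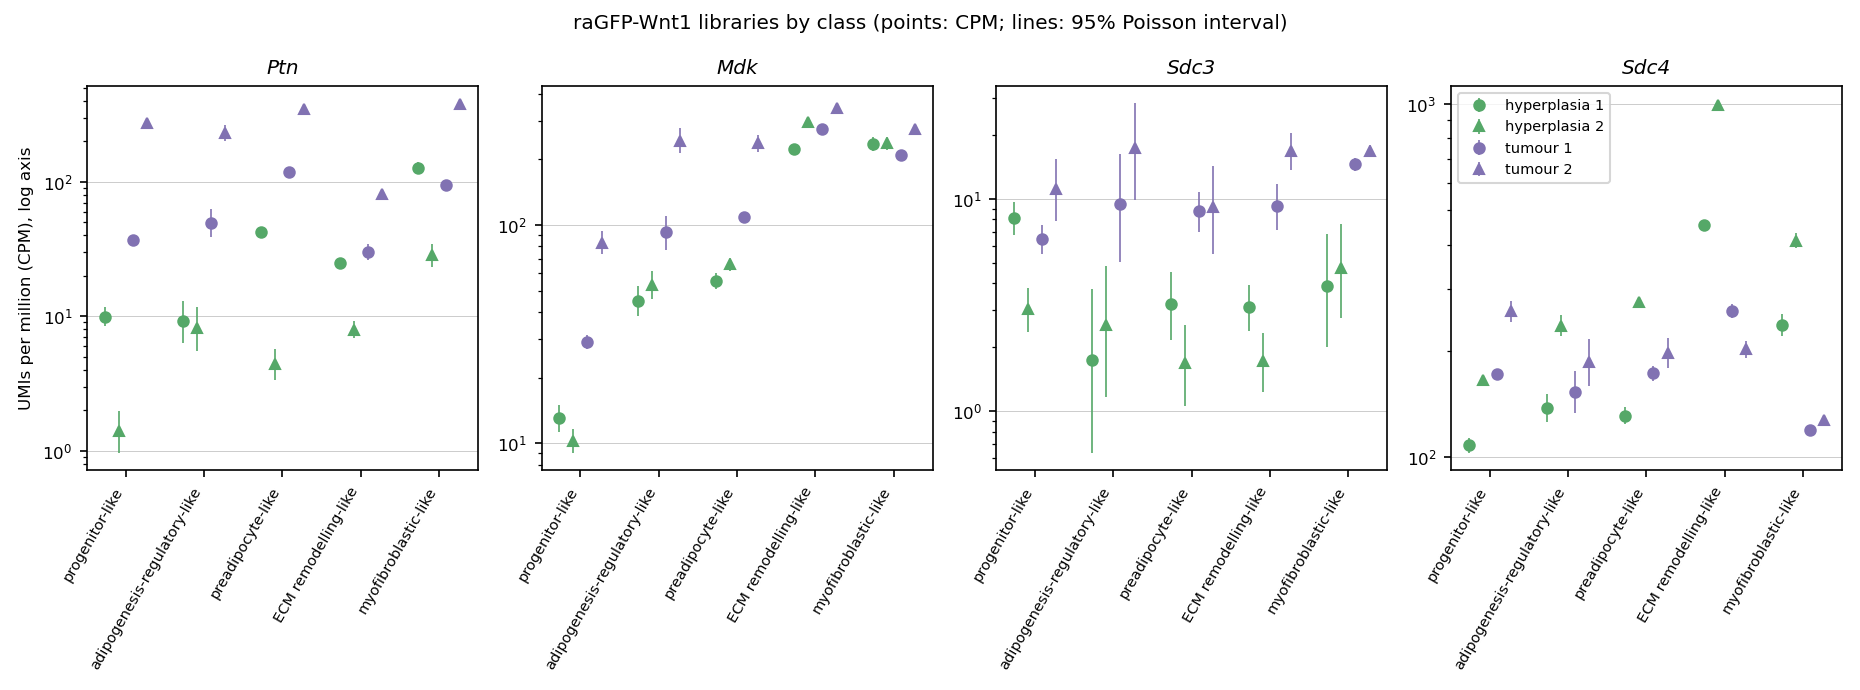
Levels of Ptn, Mdk, Sdc3 and Sdc4 in CPM (vertical log axis) by fibroblast class in the 4 raGFP-Wnt1 libraries, with circles for mouse 1, triangles for mouse 2, green for hyperplasia and purple for tumour, and lines for the 95% Poisson interval. Sdc3 of both tumours lies above both hyperplastic glands in 4 of 5 classes, and Sdc4 of the myofibroblastic-like class is 236.7 and 410.9 CPM in hyperplasia and 119.6 and 127.2 CPM in tumour.

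Sdc3 passed in 4 of 5 classes, with log2 fold changes of 2.40 ± 0.51 in adipogenesis-regulatory-like (adjusted p = 0.0332), 2.29 ± 0.39 in ECM remodelling-like (0.0350), 1.77 ± 0.35 in myofibroblastic-like (0.0191) and 1.99 ± 0.38 in preadipocyte-like cells (0.0444). In progenitor-like cells its value was 0.69 ± 0.49 (limma-voom, adjusted p = 0.449), with 8.120 and 3.013 CPM in hyperplasia against 6.435 and 11.14 CPM in tumour. The background was 4.39% in adipogenesis-regulatory-like, 6.37% in ECM remodelling-like, 23.0% in myofibroblastic-like, 4.77% in preadipocyte-like and 2.94% in progenitor-like cells. At resolution 0.6 Sdc3 passed in the preadipocyte-like class alone (2.05 ± 0.35, adjusted p = 0.0349). Its values there were 1.76 ± 0.56 in adipogenesis-regulatory-like cells (limma-voom, adjusted p = 0.157), 1.97 ± 0.51 in ECM remodelling-like (0.0560) and 1.31 ± 0.42 in myofibroblastic-like cells (0.0778). The tumour cells of the adipogenesis-regulatory-like class at resolution 0.3 were shallow, as given above for Ptn. In total 7 of 35 tests of a gene in a class passed, and 5 at resolution 0.6. This count changed with the library left out, as did the share of all genes called in all fibroblasts.

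The remaining calls were those of Sdc1 and Sdc4 in the myofibroblastic-like class. Sdc1 rose from 31.18 and 33.45 to 77.57 and 136.1 CPM (log2 fold change 1.62 ± 0.33, limma-voom, adjusted p = 0.0212), and Sdc4 fell from 236.7 and 410.9 to 119.6 and 127.2 CPM (-1.38 ± 0.26, adjusted p = 0.0176). At resolution 0.6 Sdc4 passed (-1.62, adjusted p = 0.0186) and Sdc1 did not (1.15, adjusted p = 0.0816, limma-voom). The class was then made of fewer cells, 169 and 178 in hyperplasia and 2744 and 2097 in tumour, against 366 and 452 and 3724 and 3105 at resolution 0.3. Comp, Scube2, C1qtnf3 and Aqp5, which were among the leading genes of a myofibroblastic-like cluster at resolution 0.3, then led the cluster named lobular-like. Of the 2 clusters of this class, led by Comp, Fmod and Col11a1 and by Cxcl5, Spp1 and Tnc, the Comp cluster held most cells except in tumour 2, where 1789 of 3105 cells were in the Cxcl5 cluster. Pericyte markers were raised in the Comp cluster (mean log2 ratio 1.59, against 1.30 for the myofibroblastic markers). The part of pericyte RNA in the Sdc1 level of this class was not tested. In the Comp cluster Sdc4 was at 206.2 and 351.1 CPM in hyperplasia and 57.41 and 58.72 CPM in tumour, and in the Cxcl5 cluster at 374.8 and 670.1 against 198.9 and 164.3 CPM. Sdc3 was also higher in both tumours in each of the clusters, from 13.12 to 23.14 CPM in tumour against 3.569 to 5.943 CPM in hyperplasia.

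The mouse was also made a block, a fit with 1 residual degree of freedom. In all fibroblasts limma-voom then called 30.6% of all genes, against 19.9% in the same 4 libraries without the block. The class shares of called genes given above are from fits without the block. Shares of all genes in the class fits with the block are not given, so nothing about these genes is read from the number of calls. Within classes 14 of 35 tests passed with the block in limma-voom. The added calls were Mdk (1.54) and Sdc1 (2.41) in adipogenesis-regulatory-like cells, where the tumour barcodes were shallow and where without the block at resolution 0.6 neither passed (1.19, adjusted p = 0.183, and 1.70, 0.163), Ptn and Mdk (1.38, 0.00880) in preadipocyte-like cells, Mdk (2.17, 0.0408) and Sdc4 (0.71, 0.0426) in progenitor-like cells and Sdc4 (-1.68, 0.0374) in ECM remodelling-like cells. Sdc4 thus had a positive sign in progenitor-like cells, at 108.1 and 165.4 CPM in hyperplasia and 171.6 and 259.1 CPM in tumour, and a negative one in the ECM remodelling-like class, at 456.2 and 991.9 against 259.5 and 202.2 CPM. The difference between these classes was not tested.

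Hyperplastic gland was compared with the puberty and adult libraries, joined as normal. Mdk rose from 47.00 and 35.77 CPM to 118.6 and 132.0 CPM (log2 fold change 1.57 ± 0.27, limma-voom, adjusted p = 0.0251), the 1 gene of 7 that passed, beside 14.0% of all genes. Leaving out any of these 4 libraries ended the call (adjusted p = 0.110 to 0.157, log2 fold change 1.36 to 1.81). Ptn was lower, at 28.20 and 6.406 CPM against 110.2 and 62.16 CPM, without overlap, and did not pass (-2.71 ± 0.87, adjusted p = 0.0805). Strain, sorting gate, age and genotype all differ between these groups and cannot be told apart from hyperplasia. Mdk also stood at 76.83 and 88.91 CPM in the placebo libraries, which came from C57BL/6 mice of 9 weeks like the adult library at 35.77 CPM, and it reached 93.26 CPM in pregnancy and 171.7 CPM in involution.

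Genes of the same pathways were described from lists, and most calls in these lists were lost without 1 library. Without either placebo library none of the 6 list genes called under MPA+E passed in edgeR, where 22 and 42 of all genes were called in place of 678. Without either hyperplastic library 2 of the 16 called in tumour passed in limma-voom, Gpc1 and Hs6st2, where 242 and 314 of all genes were called in place of 4777. Without puberty, adult or either hyperplastic library none of the 5 called in hyperplasia against normal passed, where 1 to 183 of all genes were called in place of 2280. No log2 fold change of these calls changed sign without 1 library. This leaving out for the lists was added after seeing the data.

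Other receptors of pleiotrophin and midkine were described from a list of 12 genes. In MPA+E 10 were tested and 1 passed, Itgb3, an integrin subunit, which rose from 39.37 and 35.43 to 69.41 and 64.13 CPM (log2 fold change 0.85 ± 0.08, edgeR, adjusted p = 0.0121). The list's median log2 fold change was 0.11, against 0.01 over all genes, and 1 of 10 is read against the 4.33% of all genes called. In tumour against hyperplasia 2 of 11 rose, Ptprs, a receptor phosphatase that binds heparan sulfate (58.14 and 52.96 against 115.0 and 123.9 CPM, 1.11 ± 0.15, adjusted p = 0.00735), and the integrin subunit Itgb1 (0.83 ± 0.17, adjusted p = 0.0195). The 2 of 11 were below the 29.3% of all genes called. In hyperplasia against normal none of 11 passed in limma-voom.

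The enzymes that build and edit heparan sulfate numbered 21, all tested. Under MPA+E 2 fell and none rose, beside 4.33% of all genes called. Hs3st3b1, a sulfotransferase, fell from 2.879 and 3.301 to 0.5976 and 0.5156 CPM (log2 fold change -2.47 ± 0.23, edgeR, adjusted p = 0.0105), and Sulf1, which removes sulfate from the chains outside the cell, from 140.7 and 162.9 to 81.68 and 80.21 CPM (-0.90 ± 0.14, adjusted p = 0.0381). In tumour 7 rose and 2 fell, beside 29.3% of all genes, with a median log2 fold change of 0.40 against -0.01 over all genes. The largest was Hs6st2, a further sulfotransferase, at 0.3009 and 0.3038 CPM in hyperplasia and 42.20 and 72.44 CPM in tumour (7.48 ± 0.55, limma-voom, adjusted p = 0.00208). B4galt7 (1.29 ± 0.23) and B3galt6 (1.19 ± 0.30), which make the linker of the chain, also rose, and Glce, an epimerase, fell (-1.34 ± 0.40, adjusted p = 0.0470). Against normal, Hs6st2 (-2.44 ± 0.62, adjusted p = 0.0483) and Hs3st1 (-1.02 ± 0.25) fell in hyperplasia, beside 14.0% of all genes.

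Of 8 other proteoglycans of the cell surface, Gpc1, a glypican held in the membrane by a lipid anchor, had the widest range. It stood at 3.345 and 2.692 CPM in hyperplasia and 67.42 and 82.98 CPM in tumour, the latter above the 2.825 to 12.65 CPM of the 9 non-transgenic libraries (log2 fold change against hyperplasia 4.65 ± 0.22, limma-voom, adjusted p = 0.000955). Gpc1 also rose under MPA+E, from 6.291 and 5.464 to 10.96 and 12.65 CPM (1.02 ± 0.14, edgeR, adjusted p = 0.0287), and fell in hyperplasia against normal (-1.13 ± 0.24, adjusted p = 0.0350). Gpc6 (-1.17 ± 0.19, adjusted p = 0.0409) and Gpc3 (-0.74 ± 0.11, adjusted p = 0.0370) fell under MPA+E, while Gpc4 rose in hyperplasia (0.83 ± 0.15). Cd44, the hyaluronan receptor, rose in tumour (171.7 and 123.4 against 327.2 and 307.5 CPM, 1.12 ± 0.25, adjusted p = 0.0240). The counts were 1 higher and 2 lower of 6 tested under MPA+E (4.33% of all genes), 2 higher of 7 in tumour (29.3%), and 1 higher and 1 lower of 7 in hyperplasia (14.0%).

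Among 9 proteins that bind or shed syndecans, none passed under MPA+E in edgeR or in hyperplasia against normal. In tumour 2 rose, beside 29.3% of all genes, the metalloprotease Mmp9 (0.2301 and 0.2209 against 5.053 and 10.82 CPM, log2 fold change 4.98 ± 0.71, limma-voom, adjusted p = 0.00885) and the adaptor Gipc1 (1.06 ± 0.27). Among 9 relatives and chaperones of Lrp1 none passed under MPA+E, Vldlr fell in tumour (58.23 and 57.31 against 21.13 and 14.58 CPM, -1.71 ± 0.29, adjusted p = 0.0128) and Lrp5, a Wnt co-receptor, rose in hyperplasia against normal (1.66 ± 0.24, adjusted p = 0.0170), 1 gene of 9 in each, beside 29.3% and 14.0% of all genes. Lrp5 stood at 4.002 and 3.792 CPM in puberty and adult but at 8.907 to 15.05 CPM in every library other than these and pregnancy (2.841 CPM).

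The genes whose log2(CPM + 1) ran most like each member over the 13 libraries, among 5625 genes with a mean of at least 20 CPM, are given as a description, since the libraries share groups and depth. They were Il11ra1 (r = 0.88), Tubb2b (0.88) and Csrp1 (0.87) for Ptn, Dkk3 (0.90) and Rest (0.89) for Mdk, and Palld (0.87), Mical2 (0.85) and Frem1 (0.85) for Sdc1. For Sdc2 they were Itga11 (0.91), Pbrm1 (0.88) and Fap (0.87), for Sdc3 Tfpi (0.87), P4ha3 (0.86) and Odc1 (0.84), for Sdc4 Errfi1 (0.89), Tsc22d3 (0.87) and Cry2 (0.84), and for Lrp1 Frg1 (0.96), Usp8 (0.95) and Osbp (0.94). Between the ligands themselves r was 0.03, and between Ptn and Sdc3 it was 0.58.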

How the data were processed

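Stromal cells of 13 mouse mammary libraries were profiled by 10x 3′ single-cell RNA sequencing. The authors deposited raw UMI counts per gene and cell barcode for each library, and the submitters' processing notes name Cell Ranger 6.1.2 and mm10. Barcodes were restricted to fibroblasts as described above and UMIs were added up for each library and each class. Sums were scaled to CPM. The 7 genes and the pathway lists were chosen with earlier results of these data known.

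Cells were clustered per experiment with Seurat 5.3.0 (RPCA integration, 1000 features without the members and pathway genes, 30 components, resolution 0.3). Barcodes were handled with scanpy 1.11.5. Doublets were the barcodes with the highest Scrublet scores, up to a share preset from the number of barcodes (3.864% to 10.61%). These shares are a setting and not a measured rate of doublets. Such barcodes were kept in the main analysis and removed in an alternative. At most 51 barcode sequences were shared by any 2 libraries. MPA+E and placebo sums were compared by the quasi-likelihood test of edgeR 4.0.16, and the raGFP-Wnt1, puberty and adult sums in 1 fit of 6 libraries by limma-voom (limma 3.58.1), each adjusted by Benjamini-Hochberg over all genes at 0.05. Single libraries of a stage were not tested. Nothing in the labels says that replicate libraries of the hormone arms came from separate experiments, so p-values measure the spread between these samples. Hyperplasia and tumour numbers mark the same mouse in the labels, and the correlation of same-mouse deviations was 0.0949 over 16001 genes.

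In simulated counts 98 genes were changed by 1 and 102 by 2 on the log2 scale, drawn from the more abundant genes. Among 15642 genes in the MPA+E comparison the edgeR fit recovered 85.7% and 100% of them and called 23 unchanged genes. Among 16302 genes in tumour against hyperplasia the limma-voom fit recovered 19.4% and 99% and called 13 unchanged genes. Far fewer genes were changed there than the 4777 called in the data. Named genes were the 7 members, up to 4 called genes with the largest change per pathway list and comparison, and the 3 most correlated genes per member, of which 1 is not reported here. Alternatives covered normalization (DESeq2 1.42.0 included), filters, cell limits, doublets, resolution, blocks and leaving out each library.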

Additional observations from a re-analysis of the deposited data

Results flagged for a closer look

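The effect of MPA+E on Mdk differed between the progenitor-like class and the other 4 named classes, by -1.90 ± 0.34 on the log2 scale (edgeR with library as a term, adjusted p = 0.00703). The units were class sums, several per library, with 2 libraries per arm. Within the progenitor-like class alone Mdk did not pass at resolution 0.3. Mdk was lower in both MPA+E libraries than in both placebo libraries of the progenitor-like class and higher in both MPA+E libraries of the ECM remodelling-like class. The value without 1 library ranged from -2.59 to -1.33, and at resolution 0.6, where a cluster led by Ccn3 and Dlk1 stood apart from the class, it was -1.57 (adjusted p = 0.0265). It did not pass without placebo 2 (adjusted p = 0.168) or without MPA+E 2 (adjusted p = 0.157). Mdk also fell in the unnamed cluster led by Ctla2a, Tgm2 and Pgr (-1.52 ± 0.17, edgeR, adjusted p = 0.00301). That cluster was tested after its values were seen, 13.6% of genes were called in it, and it entered neither side of this difference. It met the rule for no state. Its progenitor markers had a mean log2 ratio to the other clusters of 0.69, with 2 of 7 raised, and its Schwann markers 0.66.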

How the results depend on the processing

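Counts of members called were recomputed under the alternatives that apply to each. Under MPA+E 2 of 6 genes passed in all fibroblasts, and 1 passed with no filter on low counts, with a fibroblast limit of 100 per 10000 UMIs, with every barcode within the limits on genes and mitochondrial UMIs, or with a mitochondrial limit of 5%. Leaving out 1 library gave 0 to 2. In the 4 classes other than progenitor-like 4 of 24 tests passed, 7 with no filter, and 0 to 4 without 1 library. In the progenitor-like class 1 passed, 2 with no filter, 2 at resolution 0.6, 3 with the unnamed Ctla2a cluster joined to it (an alternative chosen after seeing the data), and 0 to 3 without 1 library. The difference between the progenitor-like class and the others gave 0 to 1 without 1 library. In tumour against hyperplasia 3 passed (0 to 5 without 1 library), in hyperplasia against normal 1 (0 to 2), and within classes 7 of 35, or 13 with no filter, 5 at resolution 0.6 (chosen after seeing the data; 3 of the 7 calls passed in both) and 0 to 20 without 1 library. A lone sample of an arm was then assumed to vary like the other groups. The share of all genes called in all fibroblasts also changed with the library left out. The counts under these alternatives are therefore not read as a result about these genes.

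With the mouse as a replicate block, in the 4 raGFP-Wnt1 libraries alone, 1 gene passed in tumour against hyperplasia, beside 30.6% of all genes. Within classes 14 tests passed, for which the share of all genes is not given. The hormone numbers are not known to pair the libraries (correlation of same-number deviations 0.398 over 15636 genes). With that number as a block, which leaves 1 residual degree of freedom, 3 of 6 genes passed in all fibroblasts (Sdc1, Sdc2 and Sdc3, beside 15.7% of all genes), 11 of 24 tests in the 4 classes and 3 in the progenitor-like class. With this block 14.1% of all genes passed in adipogenesis-regulatory-like, 8.84% in ECM remodelling-like and 6.34% in lobular-like cells. Without it the shares were 3.29%, 1.20% and 2.78%. The shares with the block in preadipocyte-like and progenitor-like cells are not given, so the added calls there have no background beside them. The calls added in classes were Sdc2 in adipogenesis-regulatory-like, ECM remodelling-like, lobular-like and progenitor-like cells, Sdc1 in adipogenesis-regulatory-like and preadipocyte-like cells, Sdc3 in ECM remodelling-like, Sdc4 in preadipocyte-like and Mdk in progenitor-like cells.

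Over 196 values of called members 137 kept their side of the threshold, 59 lost it and none changed sign. Of 238 class ratios 211 moved by less than the spread between libraries, 26 moved by more and 1 reversed, that of Sdc4 in lobular-like cells of the raGFP-Wnt1 libraries (0.17 and -0.55 at resolution 0.6). That name covered 249 cells at resolution 0.3 and 1331 at 0.6, so the values do not describe the same cells. In 3 ratios the sign changed at resolution 0.6, that one and 2 whose main value lay within 1 SD of 0, Sdc4 in preadipocyte-like cells of the hormone libraries (0.17 to -0.08) and Sdc1 in myofibroblastic-like cells of the raGFP-Wnt1 libraries (-0.01 to 0.48). Sdc3 had the lowest levels of the 7 genes, at 1.809 to 15.99 CPM.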
